A study of Mus musculus with 20 samples.

Results

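Macrophages present antigen to T cells together with surface molecules that raise or restrain the T cell response. The expression of 9 such genes was followed in mouse bone marrow-derived macrophages: the receptor gene Cd28, the ligand genes Cd80, Cd86, Icosl, Cd274 and Pdcd1lg2, the receptor gene Cd40, the ectoenzyme gene Entpd1 and the receptor gene Havcr2. They were chosen by name as genes of costimulation and T cell regulation, and are 9 of the 46318 genes in the count files. All 9 were found, 8 passed the filter on low counts, and Pdcd1lg2 did not.

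The cells came from bone marrow of C57BL/6 female mice, grown in DMEM F12 medium with recombinant murine M-CSF, which the labels spell M-DSF. Mature macrophages were treated for 24 h in 4 groups of 5 biological replicates: DMSO as the vehicle, 50 µM DSHN, 1 µM GW3965, or DSHN and GW3965 together at those doses. The labels call DSHN an NR0B2 agonist, NR0B2 being a receptor-like protein that represses other nuclear receptors, and GW3965 an agonist of LXR, the nuclear receptor that switches on cholesterol export. No genotype or engineered allele is given for any group, the labels do not tie replicates to single mice, and only macrophage cultures were sequenced. If replicates share a source, the p-values measure only the spread between these cultures.

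CD80 and CD86 on an antigen-presenting cell bind CD28 on T cells, which costimulates them, or CTLA4, which restrains them and is abundant on regulatory T cells. ICOSL binds ICOS, CD40 receives the CD40L signal from helper T cells, and PDL1 (Cd274) and PDL2 (Pdcd1lg2) bind the inhibitory receptor PD1. CD39 (Entpd1) starts the conversion of extracellular ATP to adenosine, which dampens T cells, and TIM3 (Havcr2) is an inhibitory receptor found on exhausted T cells and on myeloid cells.

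The promoters of 6 of the 9 genes were found in the RefSeq table of build GRCm38.p6, as 7 windows from 250 bases before to 50 bases after a start site, since Entpd1 has more than 1 start. Havcr2 and Icosl are shown because both fell with every treatment, and Cd274 and Entpd1 because both rose with GW3965. The 250 bases before each start are printed 5′ to 3′ on the + strand, with motif matches in capitals.
Havcr2, chr11:46454681-46454930: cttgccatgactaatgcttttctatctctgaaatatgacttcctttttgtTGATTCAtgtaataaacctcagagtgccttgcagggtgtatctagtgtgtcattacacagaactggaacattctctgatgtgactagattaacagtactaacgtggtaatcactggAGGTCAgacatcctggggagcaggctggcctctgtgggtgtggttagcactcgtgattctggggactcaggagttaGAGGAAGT
Icosl, chr10:78069118-78069367: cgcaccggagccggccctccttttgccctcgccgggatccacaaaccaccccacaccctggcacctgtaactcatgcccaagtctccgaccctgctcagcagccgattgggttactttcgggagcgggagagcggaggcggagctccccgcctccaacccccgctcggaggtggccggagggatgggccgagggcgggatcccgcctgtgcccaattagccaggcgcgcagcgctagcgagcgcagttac
Cd274, chr19:29367188-29367437: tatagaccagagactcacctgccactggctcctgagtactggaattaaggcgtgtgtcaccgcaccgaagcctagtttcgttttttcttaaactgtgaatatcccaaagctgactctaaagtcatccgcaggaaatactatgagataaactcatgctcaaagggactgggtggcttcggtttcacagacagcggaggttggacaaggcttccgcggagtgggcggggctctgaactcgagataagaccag
Entpd1, first start, chr19:40612116-40612365: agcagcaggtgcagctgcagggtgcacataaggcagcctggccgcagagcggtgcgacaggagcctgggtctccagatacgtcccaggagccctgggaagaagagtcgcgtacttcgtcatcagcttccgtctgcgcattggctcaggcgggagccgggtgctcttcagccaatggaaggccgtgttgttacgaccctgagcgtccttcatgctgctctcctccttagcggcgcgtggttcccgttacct
Entpd1, other start, chr19:40659520-40659769: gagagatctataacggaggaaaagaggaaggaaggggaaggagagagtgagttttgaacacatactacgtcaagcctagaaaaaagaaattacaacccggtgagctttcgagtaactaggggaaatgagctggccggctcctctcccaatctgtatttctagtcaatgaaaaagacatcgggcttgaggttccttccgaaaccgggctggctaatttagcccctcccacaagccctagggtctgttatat

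Each window was searched on both strands for exact matches to 5 motifs. The LXR response element, taken as 2 copies of AGGTCA in the same direction with 4 bases between them, was in 0.0152% of 32851 promoters of the same length, and in none of the 7 windows. A single AGGTCA, the half-site of nuclear receptors that this element contains, was in 16.3% of all promoters, and the Havcr2 window held 1 copy at -84 to -79 from the start. The AP-1 motif TGANTCA was in 7.81% of all promoters, in Havcr2 at -200 to -194 and in the unprinted Cd80 window at -42 to -36. The PU.1 motif GAGGAAGT was in 3.2% of all promoters and ended at base -1 of Havcr2. No window held the STAT motif TTCNNNGAA, found in 8.3% of all promoters. These matches describe letters only, and say nothing about binding.

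Library totals ran from 16855029 to 23796561 counts. Levels are given in CPM, the standard unit of a gene's counts relative to its library total, here with totals that TMM factors have corrected for composition. The targets of LXR responded as a check of GW3965: Abca1, a cholesterol exporter gene, stood at 208.4 CPM ± 43.7 (SD, n = 5) in DMSO libraries, rose to 3150 ± 328.5 on GW3965, and was at 286.3 ± 62.5 on DSHN and 1244 ± 65.8 in the combination. Nr0b2 itself had 0 to 8 counts in a library. All 9 macrophage markers were measured, summing to 16280 to 19520 CPM in the 20 libraries. Dendritic cell markers summed to 49.8 to 61.1 CPM, with Flt3, Ccr7, Cd209a and Siglech at 3 counts or fewer everywhere. Nearly all of that was Fscn1 (55.2 CPM ± 2.74 with DMSO), which fell with GW3965 (-0.15) and both (-0.24). Kmo, at 0.719 CPM with DMSO, rose with DSHN (1.29) and both (1.00). Clec9a, at 0.208 CPM, rose with GW3965 (1.14) and both (1.25), and Zbtb46 and Batf3 were not called against DMSO. The 17 T and NK cell markers summed to 102.5 to 168.9 CPM, nearly all of it Il7r (154.0 CPM ± 9.59 with DMSO), which fell with DSHN (-0.34), GW3965 (-0.23) and both (-0.48). Trac and Lck were the other 2 tested, at 0.649 and 0.406 CPM with DMSO, and 8 of the 17, Cd3e, Cd3g and Cd8a among them, had at most 3 counts in any library. B cell and plasma cell markers summed to 4.198 to 8.161 CPM. Most of that was Cd79b, the only one tested, which rose with GW3965 (0.28, adjusted p = 0.0326) and both (0.40, 0.00194), while Pax5 and Blk were at 0 in all libraries. The part of these cells in the results was not tested. The libraries of both compounds stood apart in one measure, the slope on exon length of each gene's log2 CPM minus its mean over the 20 libraries. Relative to that mean, longer genes were lower in them, with slopes of -0.124 to -0.0943 log2 units per doubling. The slopes were 0.00566 to 0.063 in the other 15, and they are tied to the former because all share the same mean.

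Among the 9 genes, level per exon length (RPKM, CPM per kilobase of exon) was compared within DMSO. Havcr2 at 23.2 RPKM and Entpd1 at 23.0 overlapped and led, at the percentiles 80.0 and 79.9 of the 13307 genes tested. Icosl at 8.09, Cd274 at 7.52, Cd28 at 6.74 and Cd40 at 5.59 RPKM each overlapped with the next in the order. Cd80 at 2.78 and Cd86 at 1.96 RPKM lay below them with no overlap, and Pdcd1lg2 was lowest at 0.0231. With GW3965 the order changed: Entpd1 led at 40.2 RPKM, Cd28 at 21.9 overlapped Havcr2 at 17.1, and Cd86 at 2.98 lay above Cd80 at 2.1 with no overlap.

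**Figure D1:**
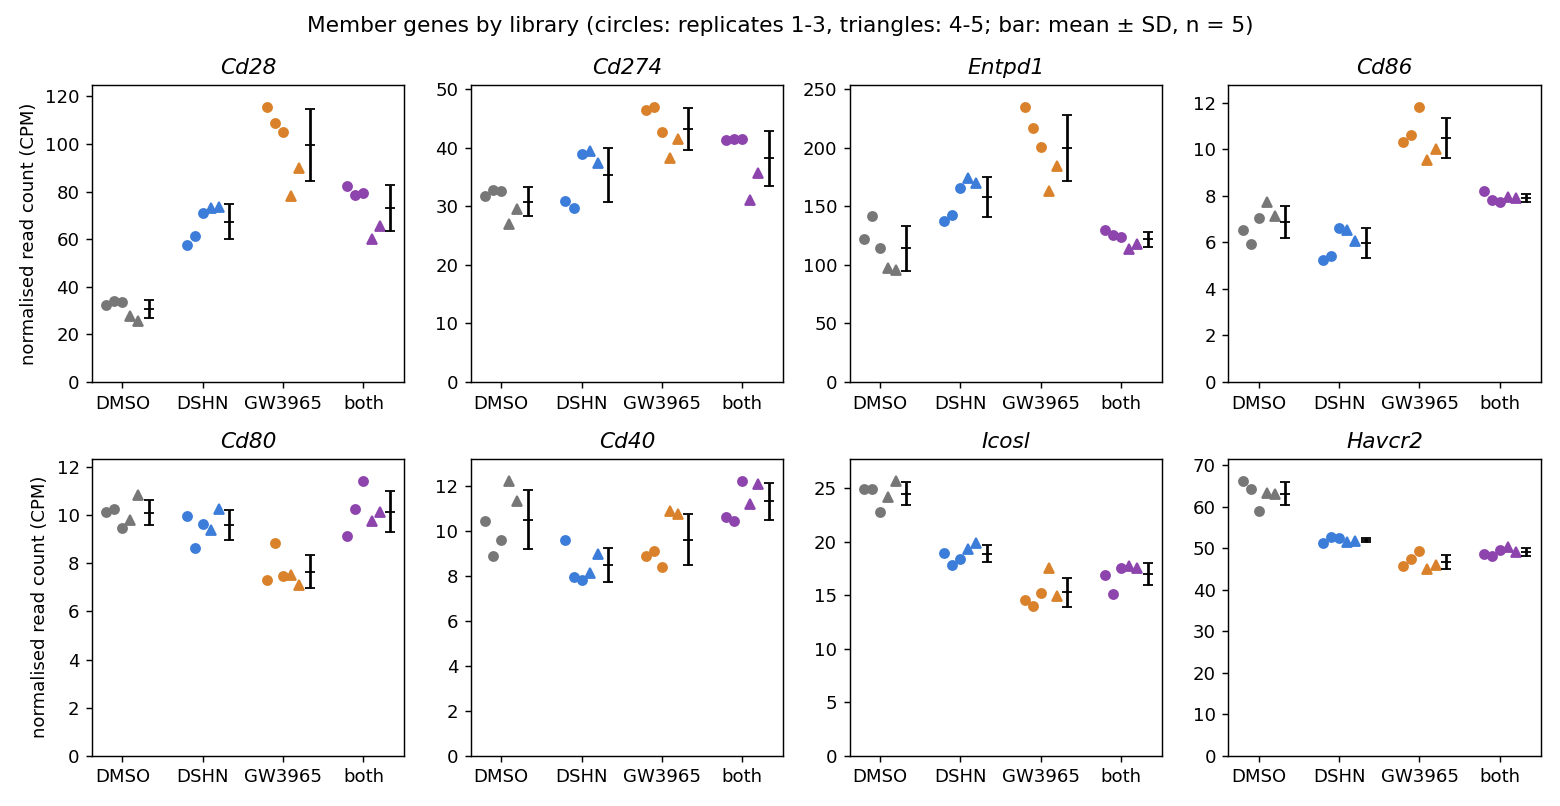
Level of each of the 8 tested genes in CPM (vertical axis, from 0) by treatment (horizontal axis). Points are single libraries, bars with whiskers mean ± SD of 5. Cd28, at 25.6 to 34.2 CPM with DMSO and 78.1 to 115.6 with GW3965, shows the widest separation of these genes.

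Every treatment was compared with the same DMSO libraries, so the comparisons are not independent. A gene was called changed at an adjusted p under 0.05 in edgeR's quasi-likelihood test with Benjamini-Hochberg adjustment over all 13307 genes. With DSHN, 2 of the 8 tested genes were higher and 3 lower, where 28.9% of all genes were called, 14.1% higher and 14.8% lower. With GW3965, 4 were higher and 3 lower, where 46.5% of all genes were called (23.6% higher and 23% lower, 3136 and 3058 genes). On scaling by total counts alone that all-gene split became 2267 higher and 4000 lower, and the members' split stayed 4 and 3. With both compounds, 3 were higher and 2 lower against a background of 64.8% (31.9% higher and 32.9% lower). The median log2 change of the 8 was -0.137 with DSHN, 0.183 with GW3965 and 0.102 with both, beside 0.00185, 0.00802 and 0.0102 over all genes. A lower RNA level in bulk samples cannot be told apart from fewer cells of a type that carry it.

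Adding DSHN to GW3965 was read against GW3965 alone, and adding GW3965 to DSHN against DSHN alone. Of the 8 genes, 3 were higher and 3 lower with both compounds than with GW3965 (57.8% of all genes called, 28.3% higher and 29.5% lower, or 3760 and 3928 genes), and 2 were higher and 2 lower than with DSHN (58.1%, 28.6% higher and 29.5% lower). On total counts the split against GW3965 became 4 higher and 3 lower for the 8 genes, and 4637 and 3295 for all genes. The interaction asks whether the DSHN effect with GW3965 present differs from the DSHN effect without it. It was positive for 4 and negative for 3 of the 8 genes, where 50.2% of all genes were called (23.7% positive and 26.5% negative). Those shares are 3154 and 3527 genes, and 4069 and 2853 on total counts. It was not called for Cd86.

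**Figure D2:**
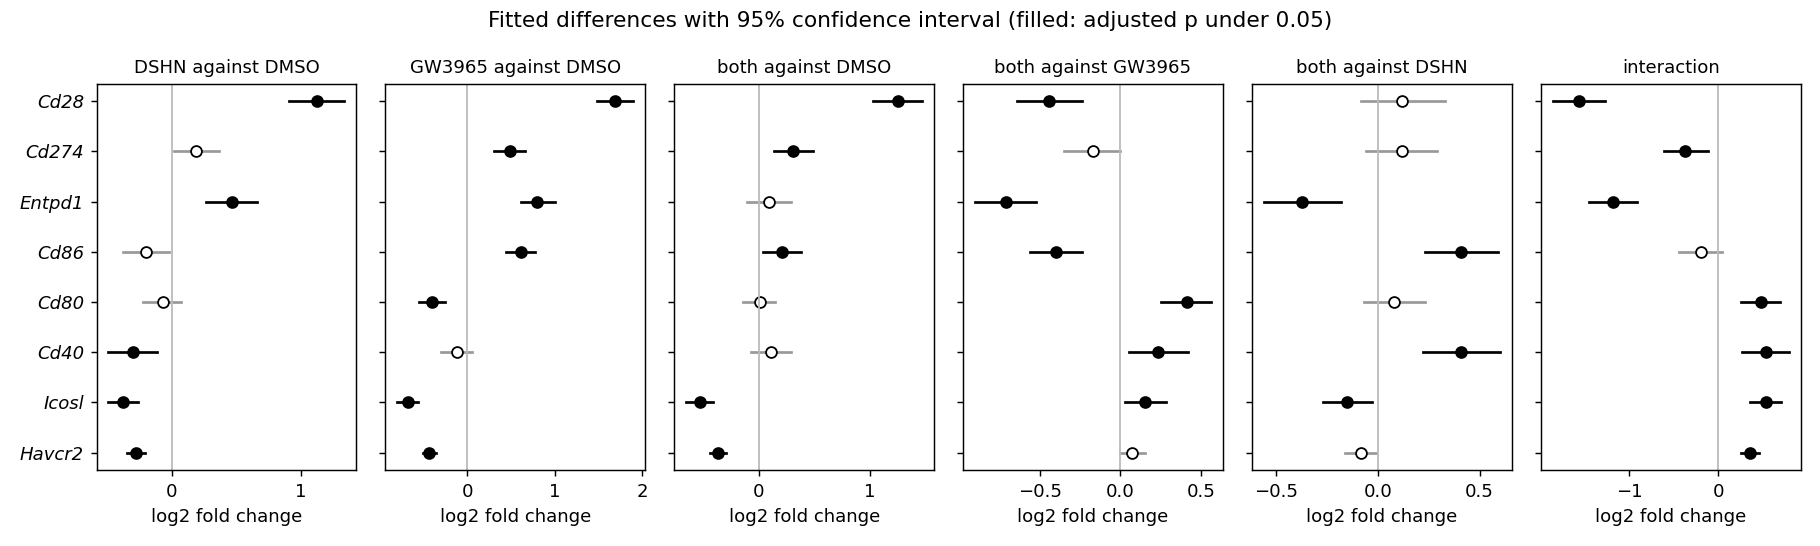
Log2 change of each tested gene (vertical axis) with its 95% interval (horizontal axis, log2 units, range set per panel) in the 6 comparisons. Cd28 lies at 1.13, 1.69 and 1.25 in the comparisons with DMSO, Icosl and Havcr2 lie below 0 in all 3, and the interaction is most negative for Cd28 at -1.57.

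Cd28 (GeneID 12487, GRCm39 chromosome 1, 60785547 to 60812521) encodes the receptor through which T cells sense CD80 and CD86. With DMSO it stood at 32.3, 34.2, 33.5, 27.8 and 25.6 CPM in replicates 1 to 5, and with DSHN at 57.6, 61.5, 71.1, 73.1 and 73.4. With GW3965 it reached 115.6, 108.8, 104.9, 78.1 and 90.1 CPM, and with both compounds 82.5, 78.5, 79.2, 59.9 and 65.4. Every treated library lay above every DMSO library, while the libraries of both compounds overlapped with those of GW3965 and of DSHN.

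Cd28 rose 2.19-fold with DSHN (log2 change 1.13, SE 0.11, adjusted p = 9.59e-09) and 3.23-fold with GW3965 (1.69, SE 0.10, 6.23e-13). With both it was 2.38-fold above DMSO (1.25, SE 0.11, 9.13e-11). Against GW3965 alone the change was -0.44 (SE 0.10, adjusted p = 0.000364), and the difference from DSHN alone, 0.12, had a 95% interval of -0.08 to 0.33 and an adjusted p of 0.3. The interaction was -1.57 (SE 0.14, 4.97e-09). The neighbours of Cd28 on the same strand that encode its relatives were nearly silent: Ctla4, 135663 bases away, had no count in any library, and Icos, 187388 bases away, had 1 to 13.

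Cd80 (GeneID 12519, chromosome 16, 38277793 to 38316682) and Cd86 (GeneID 12524, chromosome 16, 36389318 to 36486439) encode the B7 ligands of CD28 and CTLA4, and lie 1791354 bases apart. Cd80 stood at 10.1, 10.3, 9.47, 9.81 and 10.8 CPM with DMSO and at 9.96, 8.63, 9.64, 9.40 and 10.3 with DSHN. With GW3965 it stood at 7.30, 8.84, 7.46, 7.52 and 7.10 CPM, and with both at 9.14, 10.3, 11.4, 9.77 and 10.1. Only the GW3965 libraries were set off, all 5 below every DMSO library and every library of both compounds. Cd80 fell by 0.40 on the log2 scale with GW3965 (SE 0.07, adjusted p = 7.67e-05). With both compounds it was 0.41 above GW3965 (SE 0.08, 5.1e-05) and within 0.01 of DMSO (95% interval -0.14 to 0.15, adjusted p = 0.952). DSHN alone gave -0.07 (95% interval -0.22 to 0.07, adjusted p = 0.481), and the interaction was 0.48 (SE 0.10, 0.000428).

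Cd86 went the other way with GW3965. It stood at 6.53, 5.92, 7.05, 7.72 and 7.14 CPM with DMSO, and at 10.3, 10.6, 11.8, 9.55 and 10.01 with GW3965. With DSHN it stood at 5.23, 5.42, 6.64, 6.55 and 6.04 CPM, and with both at 8.21, 7.81, 7.73, 7.95 and 7.89. All GW3965 libraries lay above all others, the libraries of both compounds came next with a narrow margin over DMSO, and DSHN overlapped with DMSO.

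Cd86 rose 1.53-fold with GW3965 (log2 change 0.61, SE 0.08, adjusted p = 5.96e-07). With both compounds it was 0.40 below GW3965 on the log2 scale (change -0.40, SE 0.08, 0.000109) and 0.41 above DSHN (SE 0.09, 0.000199). Its change with both against DMSO, 0.21 (SE 0.08, adjusted p = 0.0319), lost the call in DESeq2 at 0.0518, with no filter on low counts at 0.0897, and in turn without DMSO replicate 1, DMSO replicate 2 or replicate 1 of both compounds, up to 0.115. DSHN alone gave -0.20 (SE 0.09, adjusted p = 0.0809), and the interaction -0.20 had a 95% interval of -0.44 to 0.04 and an adjusted p of 0.164. The ratio of Cd86 to Cd80, each per exon length, was 0.707 ± 0.0869 (SD, n = 5) in DMSO libraries and 0.648 ± 0.0743 in DSHN libraries. It was 1.43 ± 0.154 for GW3965 and 0.814 ± 0.0835 for the combination. The GW3965 ratios of 1.25 to 1.64 lay above the 0.701 to 0.93 of both compounds.

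Icosl (GeneID 50723, chromosome 10, 77904921 to 77915359) encodes the ligand of ICOS, a receptor of activated and regulatory T cells. It stood at 24.9, 24.9, 22.8, 24.2 and 25.7 CPM with DMSO, and at 18.96, 17.8, 18.4, 19.3 and 19.9 with DSHN. With GW3965 it stood at 14.6, 14.03, 15.2, 17.5 and 14.9 CPM, and with both at 16.9, 15.2, 17.6, 17.8 and 17.6. DMSO libraries were highest with no overlap with any treatment, and the GW3965 libraries overlapped with those of both compounds.

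Icosl fell by 0.38 on the log2 scale with DSHN (SE 0.06, adjusted p = 1.37e-05), by 0.68 with GW3965 (SE 0.06, 4.01e-10) and by 0.53 with both (SE 0.06, 1.16e-08). The 2 decreases did not add up, with an interaction of 0.53 (SE 0.08, 9.84e-06). The level with both was 0.15 above GW3965 (SE 0.06, adjusted p = 0.0355) and 0.15 below DSHN (log2 change -0.15, SE 0.06, adjusted p = 0.032). Neither small difference was stable: the first missed the threshold without any of 6 libraries (up to 0.0862), namely replicates 3, 4 and 5 of both compounds and 1, 2 and 5 of GW3965. The second missed it without any of 5 (up to 0.134), namely DSHN replicates 1, 4 and 5 and replicates 1 and 2 of both compounds. A correction for exon length also ended the first call, at an adjusted p of 0.107.

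Cd40 (GeneID 21939, chromosome 2, 164897535 to 164913574) encodes the receptor through which helper T cells license antigen-presenting cells. It stood at 10.4, 8.90, 9.61, 12.2 and 11.3 CPM with DMSO, and at 9.58, 7.95, 7.80, 8.12 and 8.98 with DSHN. With GW3965 it stood at 8.88, 9.09, 8.42, 10.9 and 10.8 CPM, and with both at 10.6, 10.4, 12.2, 11.2 and 12.1. DSHN libraries lay below all those of both compounds, and other pairs of groups overlapped.

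With DSHN, Cd40 fell by 0.30 on the log2 scale (SE 0.09, adjusted p = 0.0143). Without DMSO replicate 4 the adjusted p was 0.0543. GW3965 gave -0.12 (95% interval -0.30 to 0.06, adjusted p = 0.288), and both compounds gave 0.11 (-0.07 to 0.29, 0.276). Against DSHN alone, both compounds raised it by 0.41 (SE 0.09, 0.000398), with an interaction of 0.53 (SE 0.13, 0.00117). A correction for exon length lowered these to 0.25 (adjusted p = 0.0249) and 0.38 (0.0158). It changed the value for both compounds against DMSO to -0.07 (0.537). Against GW3965 the difference was 0.23 (SE 0.09, adjusted p = 0.0299). It was 0.07 with an adjusted p of 0.568 after a correction for exon length, and missed the threshold without any of 5 libraries (replicates 1, 2 and 3 of GW3965 and 3 and 5 of both compounds, up to 0.0813). With an exon length of 1879 bases, Cd40 was the shortest of the 9. The part of the slope on exon length given above in these differences was not tested.

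Cd274 (GeneID 60533, chromosome 19, 29339428 to 29365495) encodes PDL1, which engages PD1 on T cells. It stood at 31.8, 32.9, 32.7, 27.0 and 29.6 CPM with DMSO, and at 30.8, 29.8, 39.0, 39.5 and 37.4 with DSHN. With GW3965 it stood at 46.5, 47.0, 42.7, 38.2 and 41.6 CPM, and with both at 41.4, 41.4, 41.5, 31.0 and 35.8. GW3965 libraries lay above every DMSO library, while DSHN replicates 1 and 2 lay among the DMSO values and replicates 3 to 5 above them.

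Cd274 rose 1.40-fold with GW3965 (log2 change 0.49, SE 0.08, adjusted p = 3.38e-05) and 1.24-fold with both (0.31, SE 0.09, 0.00248). DSHN alone gave 0.19 (SE 0.09, adjusted p = 0.0927), which passed the threshold with no filter on low counts (0.00578), with the replicate block and length correction together (0.0486), and without DSHN replicate 1 or 2, down to 0.0371. Both compounds against GW3965 gave -0.17 (SE 0.08, adjusted p = 0.0781), which passed with no filter (-0.18, 0.00756) and without GW3965 replicate 4 at 0.0404. Both against DSHN gave 0.12 (SE 0.08, 0.242), which passed without replicate 4 of both compounds at 0.0474. The interaction was -0.37 (SE 0.12, adjusted p = 0.0124). Plgrkt starts 88 bases from Cd274 on the opposite strand and had 463 to 949 counts. Strand was not used in counting, so reads from where transcripts of these neighbours overlap could not be told apart.

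Pdcd1lg2 (GeneID 58205, chromosome 19, 29388319 to 29450327), the gene of the other PD1 ligand, begins 22824 bases after Cd274 and was all but silent. Its counts were 1 to 3 in DMSO libraries, 0 to 1 on DSHN, 1 to 4 on GW3965 and 0 to 4 in the combination, where Cd274 had 517 to 951 in the same 20. A count of 0 allows up to 3 counts, or 0.126 to 0.178 CPM, for counting error only. Over 5 comparisons a two-sided exact permutation test of CPM gave p = 0.0397 to 0.659, and 0.179 to 0.659 after Benjamini-Hochberg adjustment. No difference was detectable at this depth.

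Havcr2 (GeneID 171285, chromosome 11, 46345758 to 46372082), with the promoter printed first above, had the smallest SE of the 8 tested genes. It stood at 66.2, 64.3, 58.8, 63.2 and 62.9 CPM with DMSO, and at 51.3, 52.6, 52.3, 51.5 and 51.7 with DSHN. With GW3965 it stood at 45.6, 47.4, 49.4, 44.9 and 45.9 CPM, and with both at 48.5, 48.1, 49.5, 50.4 and 48.9. All 15 treated libraries lay below all 5 DMSO libraries, and GW3965 overlapped with both compounds.

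Havcr2 fell by 0.28 on the log2 scale with DSHN (SE 0.04, adjusted p = 1.25e-06), by 0.44 with GW3965 (SE 0.04, 1.92e-10) and by 0.36 with both (SE 0.04, 1.85e-09). The interaction was 0.36 (SE 0.05, 2.87e-06). Both compounds against GW3965 gave 0.07 (95% interval 0.00 to 0.15, adjusted p = 0.0876), which was called at 0.13 on total counts (0.00519), at 0.09 with a stricter filter on low counts (0.0416) and without GW3965 replicate 3 (0.0231). Both against DSHN gave -0.08 (SE 0.04, adjusted p = 0.0589), which was called at -0.14 (0.00253) after a correction for exon length and at 0.0415 without DMSO replicate 3.

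Entpd1 (GeneID 12495, chromosome 19, 40600810 to 40730046) encodes CD39, the ectonucleotidase that degrades extracellular ATP and ADP to AMP. It stood at 121.7, 141.9, 114.4, 97.3 and 95.5 CPM with DMSO, and at 137.6, 142.5, 166.0, 174.0 and 169.6 with DSHN. With GW3965 it reached 234.8, 216.6, 200.7, 162.9 and 184.1 CPM, and with both it was back at 129.6, 125.1, 123.5, 113.2 and 117.9. GW3965 libraries lay above all DMSO libraries, the libraries of both compounds lay below all those of either compound alone, and they fell inside the DMSO range.

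Entpd1 rose 1.38-fold with DSHN (log2 change 0.47, SE 0.09, adjusted p = 0.000413) and 1.75-fold with GW3965 (0.80, SE 0.09, 7.51e-08). With both it stood 0.09 from DMSO (SE 0.09, 95% interval -0.10 to 0.29, adjusted p = 0.394). It was -0.71 from GW3965 alone (SE 0.09, 3.41e-07) and -0.37 from DSHN alone (SE 0.09, 0.00128), with an interaction of -1.18 (SE 0.13, 7.94e-08). After a correction for exon length the change with both compounds was 0.23 and called (adjusted p = 0.0338). Entpd1 has the longest exon length of the 9, 4966 bases. The 9 stromal and endothelial markers summed to 1937 to 2368 CPM in the combination, below or overlapping the 2314 to 2908 of DMSO, and to 2473 to 3147 for DSHN and 2583 to 3374 for GW3965. Collagen genes made up most of the sum, with Col1a1 at 1327 and Col1a2 at 1047 CPM in DMSO libraries. The endothelial Cdh5, Pecam1 and Kdr were at 1.848, 1.497 and 6.738 CPM there. Kdr fell with DSHN (-0.37) and GW3965 (-0.69), while Cxcl12 rose with DSHN (0.95) and GW3965 (0.88). Cdh5 (0.43) and Col1a1 (0.22) also rose with GW3965. Of the 9 markers, 1 rose and 1 fell with DSHN, 3 and 1 with GW3965, and 1 and 6 with both compounds, each against DMSO. Of all genes, 28.9%, 46.5% and 64.8% were called in these comparisons, with 31.9% higher and 32.9% lower in the last. The part of these cells in the Entpd1 levels was not tested.

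Within groups, Cd28, Cd274 and Entpd1 varied together. In the DMSO, GW3965 and combination groups, replicates 4 and 5 had the lowest values of all 3 genes, and in the DSHN group replicates 1 and 2 did. Over the deviations of the 20 libraries from their group means, Pearson's r was 0.892 for Cd28 with Entpd1, 0.882 for Cd28 with Cd274 and 0.783 for Cd274 with Entpd1, as a description of libraries that share depth and handling. Cd40 deviated the opposite way, with r of -0.722 to Entpd1 and -0.666 to Cd28.

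Values were also taken from replicates 1 to 3 and from 4 and 5 apart, a split chosen after seeing this pattern, so that it restates the pattern in other numbers and tests nothing further. In replicates 1 to 3, the DSHN change was 0.93 for Cd28, 0.24 for Entpd1 and 0.04 for Cd274 on the log2 scale, and in replicates 4 and 5 it was 1.45, 0.83 and 0.44. For both compounds against DSHN, Cd28 stood at 0.34 and -0.22 and Cd274 at 0.32 and -0.20 in the respective replicates. The labels name no batch and do not say whether a replicate number means the same source in every group, so DSHN replicates 1 and 2 need not match replicates 1 and 2 of the others. The cause was not tested.

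**Figure D3:**
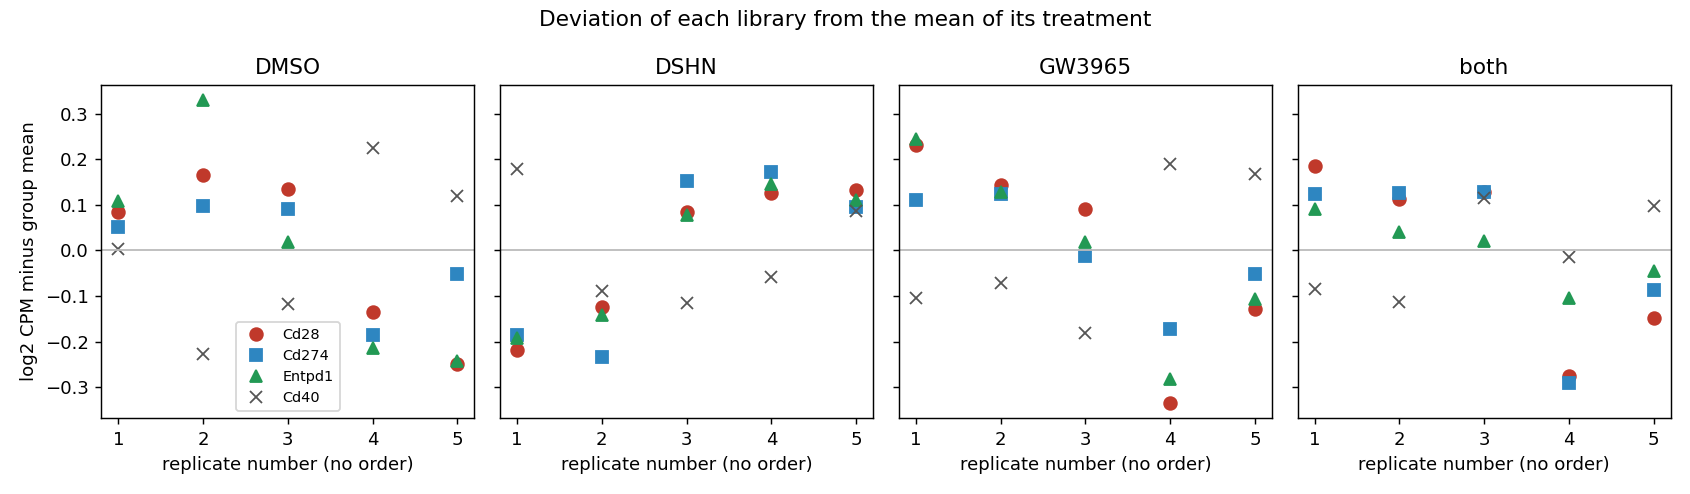
Deviation of Cd28, Cd274, Entpd1 and Cd40 from the group mean (vertical axis, log2 CPM) by replicate number (horizontal axis; numbers are names and have no order), 1 panel per treatment. Replicates 4 and 5 lie lowest for Cd28, Cd274 and Entpd1 in 3 panels, and replicates 1 and 2 in the DSHN panel.

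The genes most like each one in pattern were taken as the 3 with the highest Pearson r of log2 CPM over the 20 libraries, among genes of at least 5 CPM on average. They describe likeness only, since the 4 treatments drive most of it. Cd28 was followed most closely by Slc46a3 (0.993), Selenop (0.991) and Rragc (0.987), and Entpd1 by Rora (0.981), Jmy (0.979) and Atp2b1 (0.978). Icosl and Havcr2 shared Cx3cr1, the fractalkine receptor gene, at 0.952 and 0.95, and stood at 0.93 with each other. Next to Icosl were also Gcnt1 (0.973) and Lilrb4a (0.96), and next to Havcr2 Tpm1 (0.959) and Anxa1 (0.957). Cd274 was closest to Il10ra (0.938), the receptor gene of the cytokine IL10, and Prcp (0.938), Cd86 to Pitpnc1 (0.933), Cd80 to Emp1 (0.877) and Cd40 to Kcnk13 (0.878).

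Ctla4, Cd40lg, Pdcd1 and Icos, the genes of T cell side partners of these molecules, were near or at 0. Ctla4 and Cd40lg had no count in any library and Pdcd1 at most 3. Rgmb, another binding partner of PDL2, was the only one of the 5 partner genes tested, at 37.1 CPM ± 2.14 (SD, n = 5) with DMSO.

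Of 34 other costimulatory and coinhibitory genes, 25 were tested. They were called 7 higher and 7 lower with DSHN, 10 and 10 with GW3965, and 7 and 12 with both, where 28.9%, 46.5% and 64.8% of all genes were called. Their median changes were -0.0491, -0.0353 and -0.196, beside the all-gene medians given above. Cd276, the coinhibitory B7 homologue, fell from 20.7 CPM ± 0.895 to 14.1 ± 0.719 on DSHN, 11.2 ± 1.11 on GW3965 and 11.8 ± 1.14 in the combination (SD, n = 5; log2 changes -0.56, -0.89 and -0.81). Pilra, an inhibitory myeloid receptor gene, changed by -0.43, -0.74 and -0.44. Ceacam1, whose product binds TIM3, fell with GW3965 (-0.43) and with both (-0.72), and DSHN gave -0.11 (adjusted p = 0.152). Cd48, an adhesion ligand of the SLAM family, rose by 0.17, 0.28 and 0.40. Tnfsf9, the ligand gene of the costimulatory receptor CD137, was chosen after its values were seen. It fell from 6.25 CPM ± 1.34 to 4.53 ± 0.859 on DSHN, 2.12 ± 0.347 on GW3965 and 3.48 ± 0.748 in the combination.

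Of 21 genes of extracellular ATP and adenosine, 16 were tested, with 5 higher and 4 lower with DSHN, 4 and 6 with GW3965, and 4 and 7 with both, beside the same 28.9%, 46.5% and 64.8% of all genes. P2ry12, an ADP receptor gene, rose by 0.45, 0.81 and 0.34, and P2rx4, an ATP-gated channel gene, by 0.38, 0.43 and 0.43. Panx1, a channel that releases ATP, rose with DSHN (0.37) and both (0.46) and fell with GW3965 (-0.21). Enpp1, which hydrolyses ATP, fell with DSHN (-0.26) and both (-0.42), and GW3965 gave 0.03 (adjusted p = 0.641). Nt5e encodes CD73, an enzyme that acts after CD39 to make adenosine, and was chosen after its values were seen. It was low, at 1.22 CPM ± 0.466 in DMSO libraries, 0.534 ± 0.187 on DSHN, 0.515 ± 0.150 on GW3965 and 0.373 ± 0.160 in the combination (log2 changes -1.20, -1.22 and -1.66). Alpl, of the same list and also chosen after its values were seen, was low too but rose. It went from 1.09 CPM ± 0.423 to 2.44 ± 0.720 on DSHN, 2.39 ± 0.332 on GW3965 and 2.03 ± 0.312 in the combination (log2 changes 1.14, 1.10 and 0.87).

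Of 25 genes of CD40 and interferon signalling, all were tested, with 4 higher and 2 lower with DSHN, 6 and 4 with GW3965, and 8 and 10 with both (all genes: 28.9%, 46.5% and 64.8%). Between both compounds and GW3965, 4 were higher and 15 lower, with 28.3% and 29.5% of all genes called in those directions, counts that rest on TMM scaling. They are also not corrected for exon length, a correction that lowered the share of all genes called here from 57.8% to 47.3%. Irf8, a transcription factor of myeloid cells, rose by 0.13, 0.79 and 0.59, and Traf3, which restrains CD40 signalling, changed by -0.20, -0.48 and -0.70. Nfkb1 fell with all 3 treatments (-0.10, -0.11 and -0.50), and Rel rose with GW3965 (0.34) and fell with both (-0.35).

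**Figure D4:**
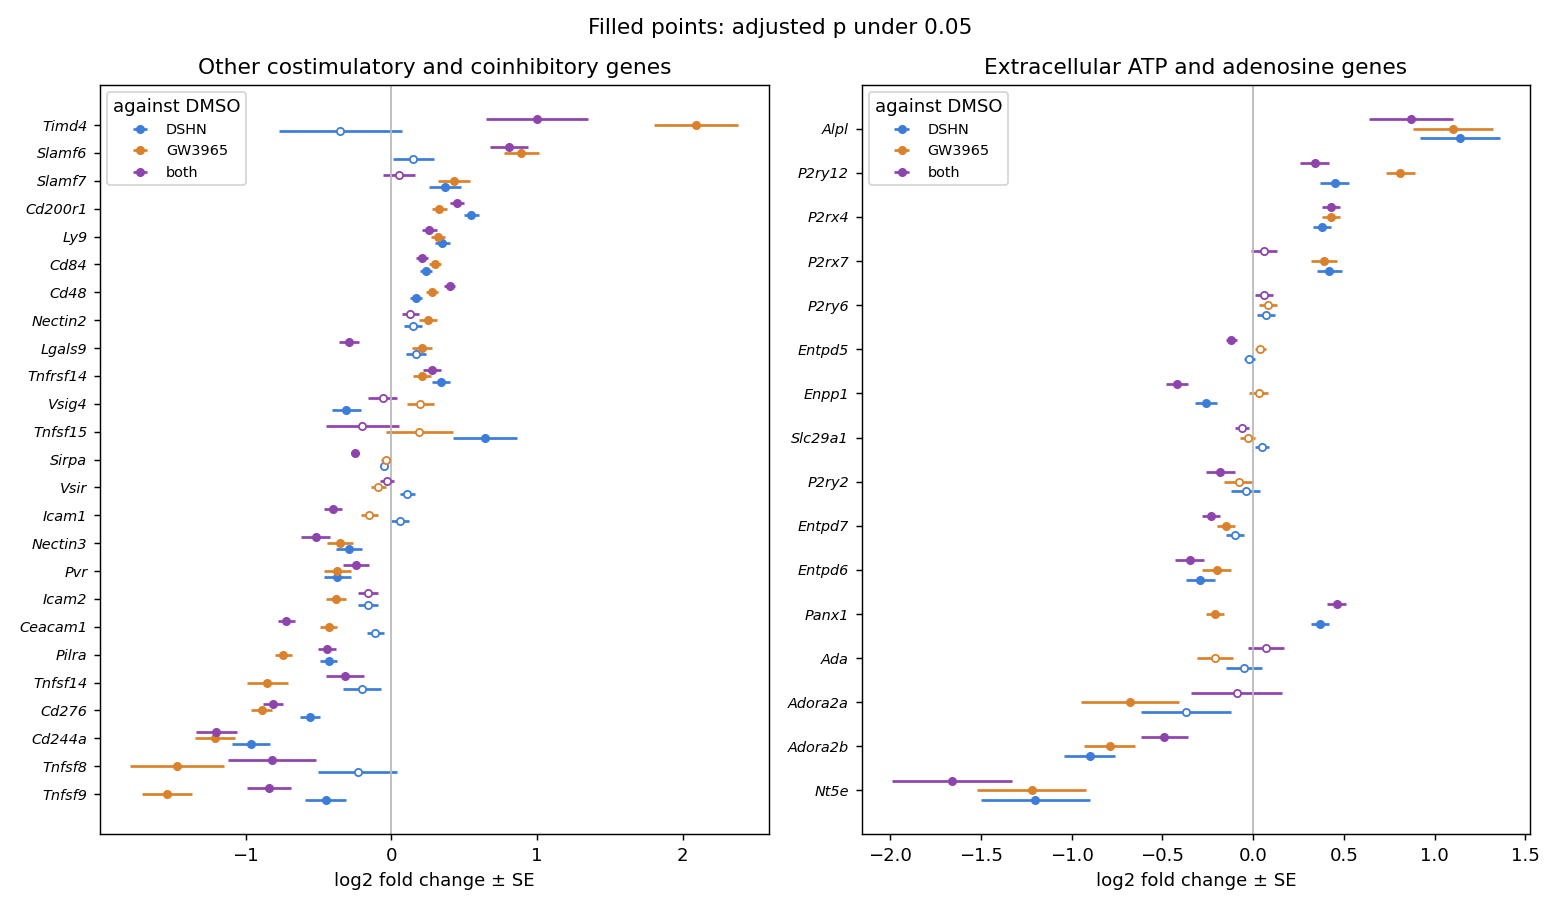
Log2 fold change against DMSO with its SE (horizontal axis) of the tested genes of 2 lists (rows), other costimulatory and coinhibitory genes on the left and extracellular ATP and adenosine genes on the right. Colours are the treatments, and filled points passed an adjusted p of 0.05: Cd276 and Pilra lie below 0, and P2ry12, P2rx4 and Cd48 above 0, with all 3.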

How the data were processed

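Per the labels' protocols, RNA of 20 macrophage cultures was made into stranded mRNA libraries with a Kapa kit. Alignment was to mouse build GRCm39 with STAR, per the submitters' processing notes; the STAR version is not given in the sources used here. The authors deposited raw counts per gene by GeneID from featureCounts v2.0.0 with RefSeq annotation, per the file headers. Their commands hold no option for strand, multi-mapped reads or overlapping genes, so strand was not used. RPKM here is computed from those counts and the exon length in the files.

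GeneIDs were named from a RefSeq table (44749 of 46318; the 1569 unnamed genes hold 0.474% of the counts and were kept in the fit). Counts were filtered with filterByExpr (13307 genes), scaled by TMM and fitted by quasi-likelihood in edgeR 4.0.16 (R 4.3.3), with 1 mean per treatment over all 20 libraries. Adjusted p-values are Benjamini-Hochberg values over all genes tested, with a threshold of 0.05. On simulated counts for DSHN against DMSO over 13098 genes, 30 of 50 genes changed 1.2-fold and 49 of 50 changed 1.5-fold were called, with 7 unchanged genes called. The changed genes were drawn only from those with an expected mean over 50 counts, so the recovery does not cover lower genes. Far fewer genes changed in the simulation than were called in the data, and it held no slope on exon length. Library totals of 16855029 to 23796561 and a biological coefficient of variation of 0.0536 set the precision, and no 2 replicates agreed within counting noise (chi-square per degree of freedom 2.468 to 13.27 over 40 pairs). Pdcd1lg2, which the filter removed, was tested by an exact permutation test (scipy 1.17.1).

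Alternatives were other scalings, filters and tools (DESeq2 1.42.0, limma 3.58.1), a correction for exon length, a replicate block, and each library left out. The 9 genes, the other gene lists and the marker lists were chosen with earlier results of these data known. Of each other list, the up to 4 genes with the smallest adjusted p over the 6 comparisons are named, and any other gene is said to be chosen after its values were seen.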

Additional observations from a re-analysis of the deposited data

Results flagged for a closer look

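The DSHN effect with GW3965 present differed from the DSHN effect without it for 7 of the 8 tested genes, by the interaction in edgeR's quasi-likelihood test, which called 50.2% of all genes tested. The difference, with minus without, was negative on the log2 scale for Cd28 (-1.57), Entpd1 (-1.18) and Cd274 (-0.37), the genes of a receptor, an ectoenzyme and an inhibitory ligand. It was positive for Cd40 (0.53), Icosl (0.53), Cd80 (0.48) and Havcr2 (0.36). All 3 negative ones had their highest mean with GW3965 alone.

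Within groups, 1 of 32 sets of 5 libraries held a library far from the others: GW3965 replicate 2 for Cd80, at 8.843 CPM, where chance marks about 1 set in 20.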

How the results depend on the processing

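Over the alternatives other than leaving out 1 library, 533 of 568 single-gene values kept direction and side of the threshold, 18 lost the call, 15 gained it and 2 reversed. Those 2 are both compounds against DSHN in replicates 4 and 5 only, chosen after seeing the data: Cd28 at -0.22 and Cd274 at -0.2. Leaving out 1 library at a time kept 932 of 960, with 20 lost, 8 gained and none reversed. The number of the 8 genes called then ranged from 4 to 6 for DSHN against DMSO, 4 to 5 for both against DMSO, 4 to 7 for both against GW3965 and 3 to 5 for both against DSHN, and was 7 each time for GW3965 against DMSO and for the interaction.

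With the replicate block, the genes called stayed at 2 higher and 3 lower for DSHN, 4 and 3 for GW3965, 3 and 2 for both, 3 and 3 for both against GW3965, 2 and 2 for both against DSHN and 4 and 3 for the interaction. The libraries were treated as unpaired, since not every same-numbered pair correlated over 0.1: over 30 such pairs r ran from -0.205 to 0.247 (median 0.0399, other pairs -0.00916), with 10 over 0.1. As a hint from the data, 13 of 20 libraries correlated best with their own number among the 5. A pairing in only part of the libraries would also fail the rule of 0.1, so whether the libraries were paired stays undecided. With the length correction, 1 of the 8 was higher and 3 lower between both compounds and GW3965 (47.3% of all genes called, from 57.8%), 4 and 2 against DMSO (58.4%, from 64.8%) and 2 and 3 against DSHN (46.4%, from 58.1%). Changes under about 1.2-fold, such as those of Icosl and Havcr2 between treatments, are near the limit of 5 replicates at this depth, and Pdcd1lg2 is below what it can resolve.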

Other observations

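Among 28 secreted or metabolic regulators of T cells, 17 were tested, with 3 higher and 2 lower with DSHN, 5 and 3 with GW3965, and 7 and 4 with both compounds. Of all genes tested, 28.9%, 46.5% and 64.8% were called in these comparisons, so the list is near the background. Arg1, an arginase gene whose product depletes arginine, fell with DSHN (log2 change -1.63, SE 0.31), GW3965 (-3.09, SE 0.39) and both (-0.86, SE 0.29). It was low throughout, so these changes rest on few counts. Its mean was 1.06 CPM in DMSO libraries (16 to 26 counts) and 0.12 CPM in GW3965 libraries (0 to 5 counts). Arg2, the other arginase gene of the list, was chosen after its values were seen and went the other way. It rose with GW3965 (1.83, adjusted p = 6.7e-05) and both (1.61, 0.000271), and DSHN gave 0.82 (adjusted p = 0.118). Arg2 was low too, at 0.226 CPM in DMSO libraries (1 to 8 counts) and 0.851 CPM in GW3965 libraries (12 to 22 counts). Aldh1a3, a gene of retinoic acid synthesis, changed by -1.93, -1.38 and -2.22. Aldh1a3 was also low, at 1.63 CPM in DMSO libraries (18 to 54 counts) and 0.346 CPM in the combination (5 to 8 counts). Il18 rose with DSHN (0.27) and with both (0.46), and GW3965 gave 0.16 (adjusted p = 0.102). Cxcl16, a chemokine gene, rose with GW3965 (0.16) and with both (0.27), and DSHN gave -0.04 (adjusted p = 0.509). Il10, chosen after its values were seen, was called only with both compounds among the 3 comparisons with DMSO, at 0.64 (SE 0.15, adjusted p = 0.000423). It was also above GW3965 alone (0.42, adjusted p = 0.0145) and DSHN alone (0.60, adjusted p = 0.000857).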
